A study of Mus musculus with 22 samples.

Results

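RNA of the whole cochlea was compared between mice of 10 weeks and mice of 6 weeks. Of the 22 libraries of the study, 5 were used: 3 libraries of whole-cochlea RNA at 10 weeks (10wk) and 2 at 6 weeks (6wk), chosen by their labels alone. These are the study's input libraries, made without an antibody, and each has a partner library of the same age in which tagged ribosomes of outer hair cells were pulled down (IP). All mice, of both ages, carried PrestinCreERT2/+;RiboTagHA/+, that is, 1 copy of a tamoxifen-inducible Cre expressed from the prestin gene (Slc26a5) and 1 copy of an allele of the ribosomal protein gene Rpl22 that Cre equips with a haemagglutinin tag. All received tamoxifen, at 9 mg per 40 g of body weight from 21 days of age and 3 mg per 40 g before it. The age at injection, the strain background, the sex, the number of cochleae pooled and the hour of dissection are not given in the labels, and neither age has a group without Cre or without tamoxifen. The design text calls the replicates independent biological samples.

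The cochlea of a young adult mouse already hears. It holds few hair cells, and most of its RNA comes from supporting cells, the stria vascularis that makes the potassium-rich endolymph, fibrocytes of the lateral wall, spiral ganglion neurons with their Schwann cells, and the surrounding bone with its marrow. The auditory nerve runs from the ganglion through a bony canal to the brainstem, where the sheath of its axons passes from Schwann cells to oligodendrocytes. In such bulk RNA, a lower level of a gene can mean fewer cells of a type or less RNA per cell, and these cannot be told apart.

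Total reads were 33170715 to 47064448 per library, of which 21093553 to 29876057 fell on genes, so that 1 read was worth 0.0212 to 0.0301 CPM, the deposited unit of reads scaled to the library's total. The gene Gm42418, which lies at chr17:39846958-39848788, took 4.28, 3.62 and 4.72% of gene reads in the 10wk libraries, against 5.93 and 18.6% in the 6wk libraries. The second 6wk library thus stands apart, also in its reads aligned to several places (35.0% of all reads, against 19.1 to 23.4% in the other 4), and where a named call or a list's calls are lost without it (6wk replicate 2), this is given beside them. Levels below are CPM rescaled to the gene reads without Gm42418, which were 21004723 to 25812045 in the 10wk libraries, against 28104067 and 17170434 in the 6wk libraries. Over the tested genes, the log2 levels correlated at 0.981 to 0.983 within 10wk, at 0.974 between the 6wk libraries and at 0.946 to 0.963 across the ages. The targeted cells were recognisable at both ages. Slc26a5, the outer hair cell motor protein, had 10.9, 9.45 and 9.81 rescaled CPM in the 10wk libraries, against 8.97 and 6.81 in the 6wk libraries (log2 change 0.32, adjusted p = 0.423), and Ocm, an outer hair cell calcium buffer, had 58.5, 59.7 and 74.3 rescaled CPM at 10 weeks, against 51.3 and 56.9 at 6 weeks.

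A second feature of the libraries bears on many of the largest values. Several genes with near-identical copies, such as processed pseudogenes, shared their reads out differently in the 10wk libraries than in all others. Cox6c, a subunit of the respiratory chain at chr15:35925886-35938246, and its processed pseudogene Cox6c2 at chr12:56373593-56373823 show it. The 231 bases of the pseudogene and the matching stretch of Cox6c (GRCm38, both on the minus strand, spliced transcript Cox6c-201 of GENCODE) are printed to show how few places can tell reads of the gene and the pseudogene apart. Capitals mark the 7 bases that differ.
Cox6c2, chr12:56373593-56373823: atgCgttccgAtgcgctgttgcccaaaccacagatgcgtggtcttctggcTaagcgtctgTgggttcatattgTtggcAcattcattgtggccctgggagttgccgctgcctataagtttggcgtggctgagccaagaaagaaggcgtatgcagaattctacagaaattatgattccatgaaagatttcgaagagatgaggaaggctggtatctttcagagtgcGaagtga
Cox6c: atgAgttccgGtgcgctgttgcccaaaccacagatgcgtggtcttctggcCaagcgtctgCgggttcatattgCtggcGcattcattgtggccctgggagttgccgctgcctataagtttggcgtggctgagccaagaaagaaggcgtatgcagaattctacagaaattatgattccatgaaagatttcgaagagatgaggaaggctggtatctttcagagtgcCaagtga

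Cox6c had 327, 300.1 and 332 rescaled CPM in the 10wk libraries, against 73.7 and 92.5 in the 6wk libraries (log2 change 1.94, SE 0.11, adjusted p = 6.09e-06). Cox6c2 had 6.46, 8.29 and 7.52 rescaled CPM in the 10wk libraries, against 80.6 and 99.5 in the 6wk libraries (log2 change -3.43, SE 0.18, adjusted p = 2.96e-06), and its levels in the partner libraries were 1.32, 0.680 and 3.74 in 10wk IP, against 21.0 and 23.2 in 6wk IP. The gene was thus high and the pseudogene low in all 3 10wk libraries, while both 6wk libraries had similar reads on both. With pseudogene reads added to the most similar gene, an alternative chosen after the data were seen, the log2 change of Cox6c was 0.88. Ndufs6, another respiratory chain subunit, and its copy Ndufs6b moved the same ways. Ndufs6 had 158, 133 and 149 rescaled CPM in the 10wk libraries, against 63.2 and 59.9 in the 6wk libraries (log2 change 1.23, 0.90 with pseudogene reads added to it), and Ndufs6b had 1.05, 1.28 and 0.809 rescaled CPM in the 10wk libraries, against 16.2 and 17.9 in the 6wk libraries (log2 change -3.15). Rpl7a, a ribosomal protein gene, went the other way, with 4.28, 3.33 and 5.28 rescaled CPM at 10 weeks, against 69.6 and 70.7 at 6 weeks (log2 change -3.76). Adding pseudogene reads left the log2 change of Rpl7a at -3.76, so that step did not account for it. Levels of several such genes at every age are plotted; the 10wk libraries stand apart from the P8, P14, P28 and 6wk libraries alike.

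**Figure D1:**
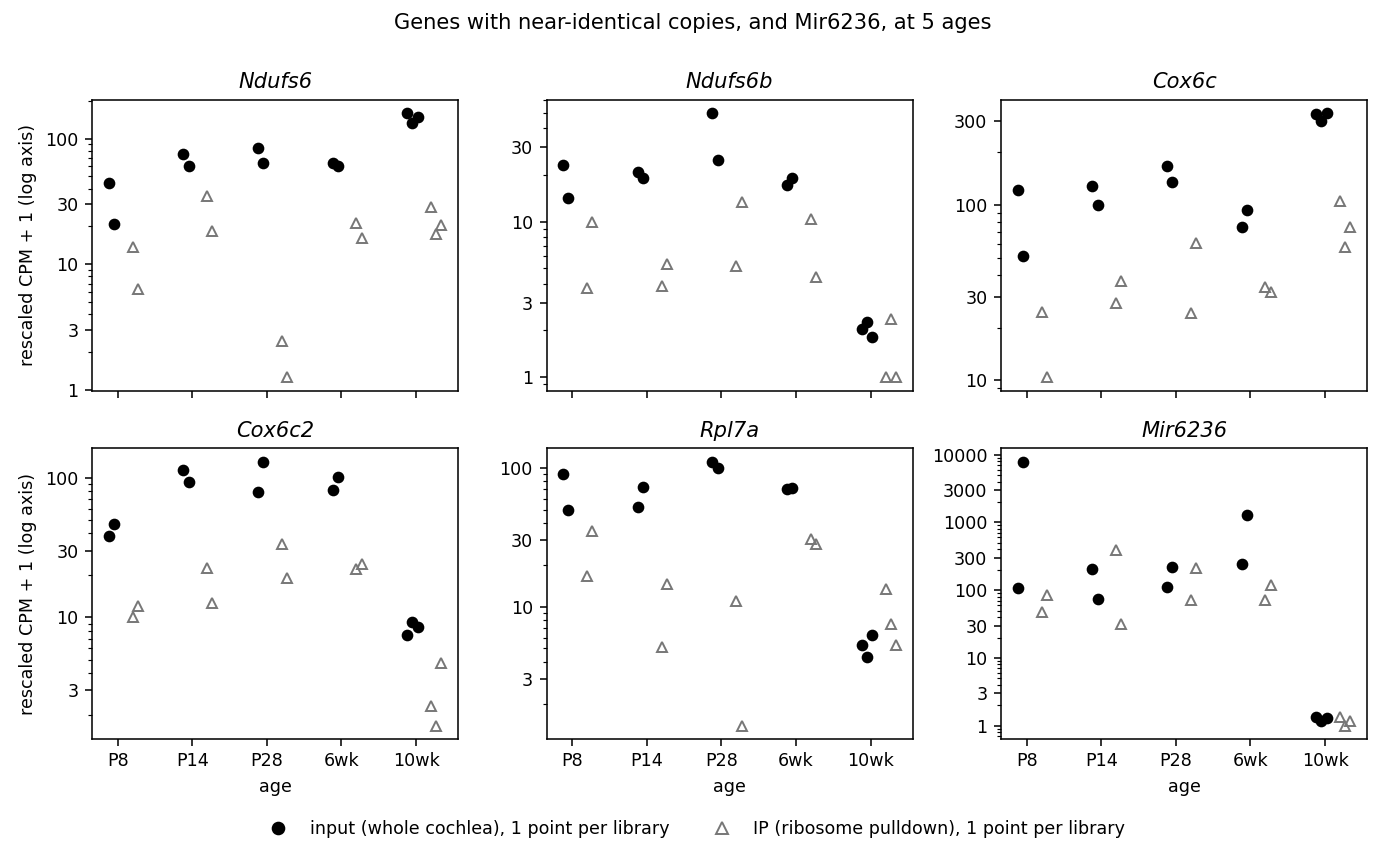
Rescaled CPM + 1 (log axis) of genes with near-identical copies and of Mir6236 at P8, P14, P28, 6wk and 10wk; circles are input and triangles IP libraries, 1 point each. Among input libraries, Ndufs6 and Cox6c lie highest, and Ndufs6b, Cox6c2, Rpl7a and Mir6236 lowest, in the 3 10wk libraries.

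The extent of this was measured by the share of each gene's 30-base stretches that also occur in another gene's transcripts. Of 902 tested processed pseudogenes, 149 were higher and 179 lower at 10wk (36.4% called). Of 4992 other genes that shared at least 5% of their stretches, 286 were higher and 164 lower (9.01% called). Of 10278 genes that shared under 5%, 139 were higher and 511 lower (6.32% called); fitted alone, genes under 5% had 67 higher and 319 lower among 10287. Reads of a gene and its copies cannot be told apart in these tables, and the way reads were assigned at 10wk and the age of the mice cannot be told apart either. The share is therefore given below for called genes that share at least 5%. It was 12.1% for Cox6c, 62.4% for Cox6c2, 15.7% for Ndufs6, 46.4% for Ndufs6b and 45.6% for Rpl7a. With pseudogene reads added, the 31 listed ribosomal protein genes had 13 higher and 0 lower, against 10 higher and 3 lower without this step (over all 16214 genes tested with limma, 3.55% were higher and 5.29% lower), and the SD of their log2 changes was 0.381, against 1.12. Over all 79 ribosomal protein genes of the cytosol tested, the step gave 35 higher and 4 lower with an SD of 0.779, against 20 higher and 13 lower with an SD of 1.19, so it left some of them low.

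Of the 16214 genes tested, 576 (3.55%) were higher and 857 (5.29%) lower at 10wk at an adjusted p under 0.05. The counts of every list below are to be set beside these shares. All 3 10wk libraries lay above both 6wk libraries in 18.8% of the tested genes and below both in 21.1%. Of the tested genes, 221 reached 1 rescaled CPM in 6wk libraries only and 274 in 10wk libraries only; such genes passed the filter through the age at which they are high, and they hold 107 of the lower and 31 of the higher calls. Of the genes named below, these are Mir6236 and Pax6 (lower) and mt-Co2, mt-Co3, Rpl38, Rnaset2b and Fbp1 (higher). The median log2 change over all tested genes was -0.016. With the CPM as deposited, whose scaling moves that median to 0.32, 684 were higher and 390 lower among 1074 called genes. Leaving out 1 library gave between 684 called genes (without 10wk replicate 1) and 1543 (without 6wk replicate 1), with 989 without 10wk replicate 2, 1012 without 10wk replicate 3 and 762 without 6wk replicate 2. Of the 161 called genes chosen for naming by list or by rule, 72 were called whichever 1 of the 5 libraries was left out. In a fit over all 11 input libraries, which takes the spread from all ages, 32 genes were called. With array quality weights over the same libraries, 1709 were called. Without weights, calls among the lists below were 2 lower genes of osteoblasts, 2 lower collagens and 1 higher nuclear gene of oxidative phosphorylation. Further calls without weights were 1 higher mitochondrial mRNA, and 1 higher and 1 lower ribosomal protein gene. Every other list had 0 without weights, those of brain neurons, brain glia and interferon among them.

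**Figure D2:**
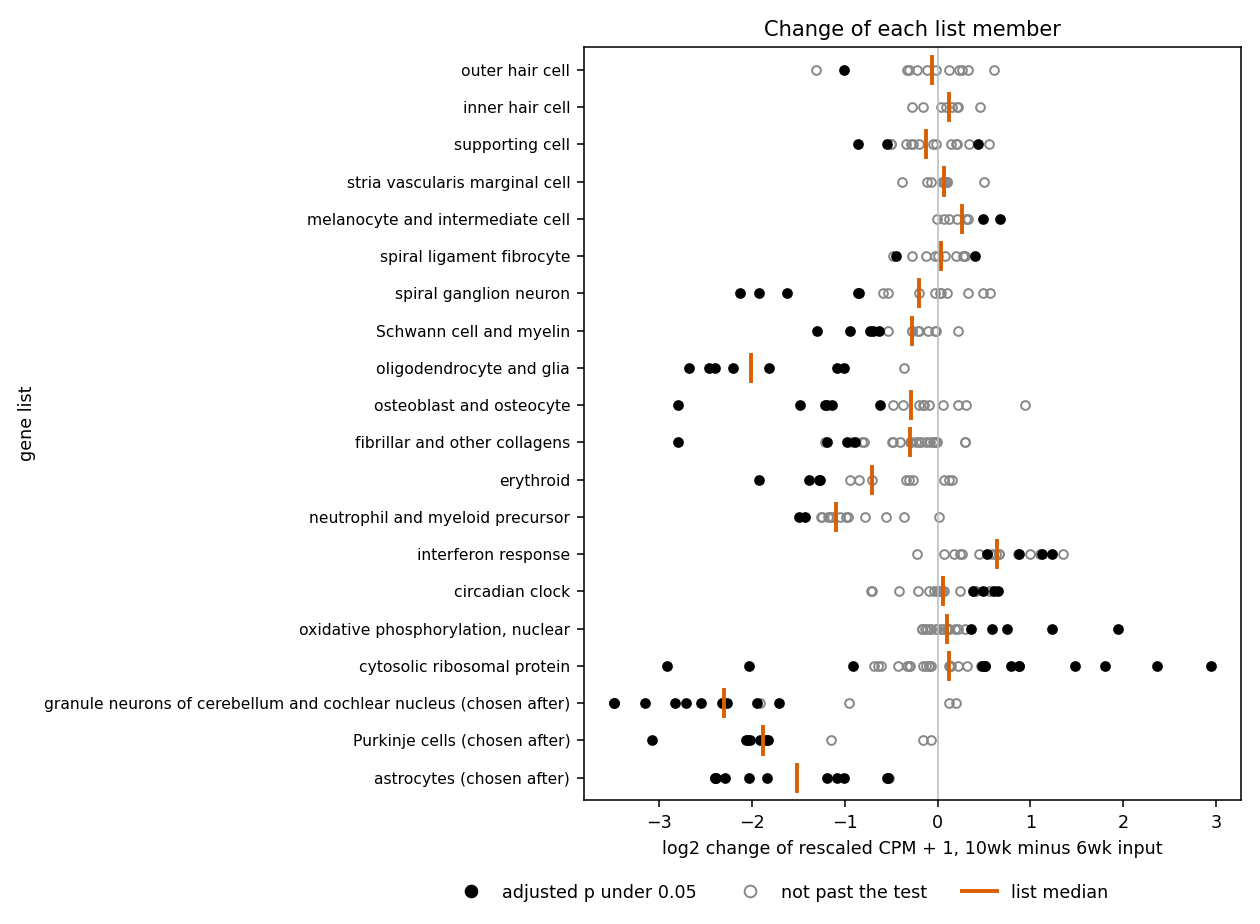
Log2 change of rescaled CPM + 1 (10wk minus 6wk) of each tested member of 20 gene lists; each point is a gene, filled where limma called it, and bars are list medians. Most members of the granule neuron, Purkinje cell, oligodendrocyte and astrocyte lists lie left of -1, the median of the interferon list is 0.64, and most members of the outer hair cell list lie near 0.

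Genes of brain neurons and glia were among the lower genes. Granule neurons are the small excitatory cells of the cerebellum and of the cochlear nucleus, the brainstem target of the auditory nerve. Of 14 such genes tested, 0 were higher and 10 lower (3.55% higher and 5.29% lower over all genes), with a median log2 change of -2.29. Of the 10, Pax6 passed the filter through the 6wk libraries only, the age at which it is high. This list and those for Purkinje cells, astrocytes, inhibitory neurons, GABA-A and glutamate receptors were chosen after the values were seen, and their counts describe them only. Gabra6, a GABA-A receptor subunit of granule neurons, had 0.683, 0.930 and 4.28 rescaled CPM in the 10wk libraries, against 48.7 and 15.7 in the 6wk libraries (log2 change -3.48, SE 0.53, adjusted p = 0.003). Cbln3, a secreted synapse organiser of granule neurons, had 5.01, 5.66 and 6.47 rescaled CPM in the 10wk libraries, against 121 and 44.8 in the 6wk libraries (log2 change -3.48, SE 0.33, adjusted p = 1.79e-04). The 10wk levels of both were low in all 3 libraries and did not overlap with the 6wk levels, of which the first library's were the higher. Zic1, a granule neuron transcription factor, had 6.42, 9.41 and 22 rescaled CPM at 10 weeks, against 97.4 and 50.1 at 6 weeks (log2 change -2.55). Neurod1, a neuronal differentiation factor, had 1.82, 0.659 and 4.86 rescaled CPM at 10 weeks, against 34.2 and 19.2 at 6 weeks (log2 change -3.14, 11.3% shared). Summed over the list, the level was 448, 515 and 493 rescaled CPM in the 10wk libraries, against 941 and 597 in the 6wk libraries. Most of the 10wk sums came from list members other than Gabra6, Cbln3, Zic1 and Neurod1.

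Before 6 weeks the level of these genes varied. Summed over the list, it was 272 and 196 rescaled CPM at P8, 295 and 415 at P14 and 712 and 404 at P28. The 10wk sums of 448, 515 and 493 thus lay above those of P8 and P14 and between those of P28. Cbln3 had 1.39 and 1.95 rescaled CPM in the P8 libraries, 0.182 and 3.89 at P14, 82.1 and 18.9 at P28, 121 and 44.8 at 6wk and 5.01, 5.66 and 6.47 at 10wk. It was thus low up to P14, high with a wide spread at P28 and 6wk, and low again at 10wk. The pulldown libraries showed the same difference, with 1.39, 2.35 and 4.56 in 10wk IP, against 144 and 45.7 in 6wk IP for Gabra6 and 2.56, 2.22 and 7.24 in 10wk IP, against 117 and 61.4 in 6wk IP for Cbln3. The median IP log2 change of the 14 genes was -2.71.

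Genes of other brain neurons moved the same way. Of 10 Purkinje cell genes, 0 were higher and 7 lower (median -1.88). Rgs8, a regulator of G protein signalling, had 3.50, 8.06 and 20.1 rescaled CPM in the 10wk libraries, against 121 and 51.3 in the 6wk libraries (log2 change -3.07), and Calb1, a calcium buffer of Purkinje cells and of hair cells, had 8.06, 11.8 and 27.9 rescaled CPM at 10 weeks, against 78.0 and 48.2 at 6 weeks (log2 change -2.06, adjusted p = 0.00934). Of 6 genes of inhibitory neurons, 5 were lower, among them Gad1, which makes the transmitter GABA, with 6.15, 18.5 and 17.9 rescaled CPM at 10 weeks, against 47.2 and 148 at 6 weeks (log2 change -2.62). Of 14 GABA-A receptor subunits, 7 were lower, and of 22 glutamate receptor subunits 11. Grm4, a metabotropic glutamate receptor of granule neurons, had 4.92, 7.90 and 7.24 rescaled CPM at 10 weeks, against 45.4 and 29.5 at 6 weeks (log2 change -2.31, SE 0.25, adjusted p = 3.97e-04). Gabra2, a GABA-A receptor subunit, had 1.91, 3.60 and 4.28 rescaled CPM at 10 weeks, against 17.9 and 67.0 at 6 weeks (log2 change -3.12), with the second 6wk library the highest. The potassium channel Kcnd2 and the presynaptic adhesion protein Nrxn3, which the naming rule picked among genes with few shared stretches, had log2 changes of -2.74 and -2.85. Zic2, Etv1, Itpr1 and Pvalb, members of the same lists, were not called.

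Glial genes of the central nervous system were lower as well. Of 12 astrocyte genes, 11 were lower (median -1.51), and of 8 genes of oligodendrocytes and glia 7 (median -2.01). Gfap, the intermediate filament of astrocytes, had 4.78, 13.2 and 24.1 rescaled CPM in the 10wk libraries, against 46.4 and 94.2 in the 6wk libraries (log2 change -2.40, adjusted p = 0.0136). Mog, a myelin protein that Schwann cells lack, had 1.32, 1.82 and 2.19 rescaled CPM in the 10wk libraries, against 10.5 and 18.8 in the 6wk libraries (log2 change -2.45, SE 0.31, adjusted p = 0.00103), and Mobp, another myelin protein of oligodendrocytes, had 16.5, 20.1 and 58.0 rescaled CPM at 10 weeks, against 102 and 159 at 6 weeks (log2 change -2.20). In Gfap, Mog and Mobp, each 10wk level was below both 6wk levels, and the second 6wk library was the highest of the 5. Olig1, a transcription factor of the oligodendrocyte lineage, had a log2 change of -2.67 (6.00% shared). Aqp4, a water channel of astrocytes and of cochlear supporting cells, changed less (log2 change -1.0, adjusted p = 0.0145). Summed over the list of oligodendrocytes and glia, levels were 238 and 248 rescaled CPM at P8, 434 and 627 at P14, 423 and 921 at P28, 531 and 769.8 at 6wk and 201, 297 and 314 at 10wk. The 2 P28 libraries thus lay on either side of both 6wk libraries. In the pulldown Mog overlapped, with 3.81, 2.10 and 1.62 in 10wk IP, against 4.38 and 3.31 in 6wk IP. How much brainstem tissue each dissection held is not given, and its part in these values was not tested.

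How far the calls rested on single libraries differed between the lists. The oligodendrocyte calls below are those of the list of oligodendrocytes and glia, which shares Gfap, Aqp4 and Slc1a2 with the astrocyte list. Its members Mog, Mobp and Olig1 held their calls whichever library was left out. Pax6 of the granule neuron list no longer passed the filter without either 6wk library and is counted as lost there. Without 6wk replicate 2, 9 of the 10 granule neuron calls, 6 of the 7 Purkinje calls, 3 of the 7 oligodendrocyte calls and 1 of the 11 astrocyte calls remained. Without 6wk replicate 1 these were 7, 6, 7 and 10, and without 10wk replicate 1 they were 10, 5, 6 and 5. Inhibitory neurons kept 3 of 5 calls without 6wk replicate 2, 5 without 6wk replicate 1 and 3 without 10wk replicate 1. The glutamate receptors kept 5, 11 and 6 of 11 in the same order, and the GABA-A receptor subunits 6, 7 and 6 of 7. Of the genes above, Gfap and Aqp4 lost their calls without 6wk replicate 2.

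**Figure D3:**
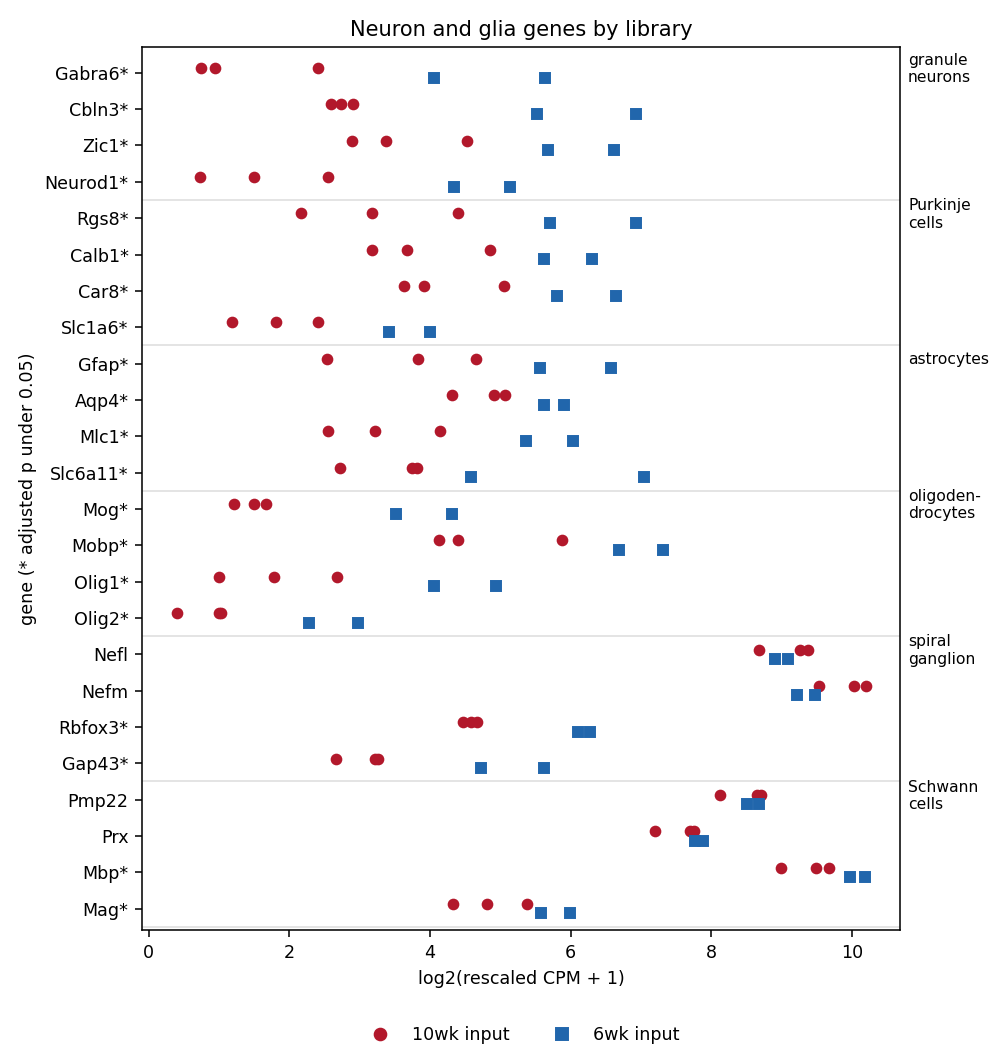
Log2 of rescaled CPM + 1 of genes of brain neurons, brain glia, spiral ganglion neurons and Schwann cells; each red circle is 1 of the 3 10wk libraries and each blue square 1 of the 2 6wk libraries, and a star marks genes limma called. Gabra6, Cbln3 and Mog are separated widely, while the ganglion gene Nefl and the Schwann cell gene Pmp22 overlap between the ages.

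Spiral ganglion neurons, which carry the signal of the hair cells to the brain, gave a mixed picture. Of 15 of their genes, 0 were higher and 5 lower (median -0.19), against 3.55% and 5.29% of all genes. Rbfox3, a neuronal RNA-binding protein, had 24.4, 21.2 and 22.9 rescaled CPM in the 10wk libraries, against 68.1 and 76.2 in the 6wk libraries (log2 change -1.62, SE 0.13, adjusted p = 5.91e-05), and all 3 10wk levels were below both 6wk levels. Gap43, a protein of growing axons, had 5.37, 8.56 and 8.28 rescaled CPM in the 10wk libraries, against 25.5 and 48.0 in the 6wk libraries (log2 change -2.12, adjusted p = 0.00132). Stmn2 and Uchl1, both broad neuronal genes, were lower (log2 change -0.85, adjusted p = 0.0157 for Stmn2, and log2 change -0.85, adjusted p = 0.0308, 14.9% shared for Uchl1), and so was the vesicle calcium sensor Syt1 (log2 change -1.92). In contrast, Nefl, the light neurofilament chain of thick axons, had 663, 409 and 612 rescaled CPM in the 10wk libraries, against 480.1 and 544 in the 6wk libraries (log2 change 0.11, adjusted p = 0.777), with overlapping groups, and Tubb3, the neuronal tubulin, was not called (log2 change -0.59, adjusted p = 0.095). The summed level of the list was 5632, 3752 and 5362 rescaled CPM in the 10wk libraries, against 4374 and 5301 in the 6wk libraries, so the groups overlapped. Rbfox3, Gap43, Stmn2, Uchl1 and Syt1 are also expressed by neurons of the brain. Without 6wk replicate 2, 2 of the 5 calls remained, those of Rbfox3 and Gap43, and without 6wk replicate 1 all 5.

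Myelin genes gave a mixed picture as well. Mbp, a myelin protein of oligodendrocytes and of Schwann cells, had 718, 509 and 814 rescaled CPM in the 10wk libraries, against 1002 and 1159 in the 6wk libraries (log2 change -0.69, adjusted p = 0.0334). Mag, Cnp and Ncmap were also lower (log2 changes -0.95, -0.63 and -0.73). Pmp22, a protein of peripheral myelin, had 401, 276 and 416 rescaled CPM in the 10wk libraries, against 364 and 408 in the 6wk libraries (log2 change -0.10, adjusted p = 0.755), and its groups overlapped. Prx (log2 change -0.27, adjusted p = 0.313), which anchors peripheral myelin, was not called either. Summed over the list of Schwann cell and myelin genes, levels were 9035, 7748 and 9009 rescaled CPM in the 10wk libraries. They were 10959 and 11158 in the 6wk libraries, so the groups were apart. In 8 of the 14 genes all 3 10wk levels lay below both 6wk levels (21.1% of all genes). In 1 gene they lay above both (18.8% of all genes). Of the 14 genes, 0 were higher and 5 lower (median -0.28), against 3.55% and 5.29% of all genes. Of these calls 1 remained without 6wk replicate 2, 1 without 10wk replicate 1 and 3 without 10wk replicate 2.

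Genes of the synapses in the cochlea included 3 lower of 14 tested (5.29% of all genes), Bsn, Pclo and Gria2. Bsn, a scaffold of the active zone in hair cells and in brain neurons, had 19, 19.7 and 26.4 rescaled CPM in the 10wk libraries, against 52.2 and 53.5 in the 6wk libraries (log2 change -1.26, adjusted p = 0.00118). Without 10wk replicate 1, 10wk replicate 2 or 6wk replicate 2, Bsn alone remained.

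Genes of bone matrix were also among the lower genes. The cochlea is enclosed in the otic capsule, a bone that remodels little once formed. Col1a1, a chain of type I collagen, the main protein of bone, had 27.7, 18.3 and 25.2 rescaled CPM in the 10wk libraries, against 163 and 174 in the 6wk libraries (log2 change -2.80, SE 0.16, adjusted p = 6.09e-06); the gene lies at chr11:94936224-94953042. It was at 27.1, 33.0 and 38.9 in 10wk IP, against 148 and 150.1 in 6wk IP. Its partner chain Col1a2 had 174, 149 and 187 rescaled CPM in the 10wk libraries, against 401 and 376 in the 6wk libraries (log2 change -1.19, adjusted p = 1.44e-04). All 3 10wk levels of both were below both 6wk levels, and the change of Col1a1 was the larger. Col1a1 stood at 543 and 1103 rescaled CPM at P8, 451 and 484 at P14 and 267 and 253 at P28, so that the 10wk libraries continued a descent seen at each age. Col1a2 stood at 5559.9 and 4343, 2459 and 2332 and 585 and 553 rescaled CPM at those ages.

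Of 16 osteoblast and osteocyte genes, 0 were higher and 6 lower (median -0.29), against 3.55% and 5.29% of all genes. Besides the collagen chains these were Ibsp, bone sialoprotein, with 19.9, 16.7 and 13.7 rescaled CPM at 10 weeks, against 26.5 and 53.2 at 6 weeks (log2 change -1.13), Dmp1, an osteocyte matrix protein, with 38.7, 35.0 and 32.8 rescaled CPM at 10 weeks, against 53.6 and 55.9 at 6 weeks (log2 change -0.61), Sp7, an osteoblast transcription factor (log2 change -1.48), and Bglap, osteocalcin (log2 change -1.21), which shares 63.5% of its stretches with Bglap2. Spp1, osteopontin, had 3341, 3348 and 3422 rescaled CPM in the 10wk libraries, against 3727 and 3798 in the 6wk libraries (log2 change -0.16, adjusted p = 0.513), and Alpl, the bone phosphatase, had a log2 change of 0.06; neither was called, nor were Runx2 and Bglap2. The summed level was 3799, 3746 and 3844 rescaled CPM in the 10wk libraries, against 4573 and 4654 in the 6wk libraries. Calls for Col1a1 and Col1a2 held without each of the 5 libraries, while Bglap, Ibsp, Dmp1 and Sp7 were lost without 6wk replicate 2. Ibsp and Sp7 were also lost without any 1 of the 3 10wk libraries, Bglap without 10wk replicate 1 and Dmp1 without 10wk replicate 3.

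**Figure D4:**
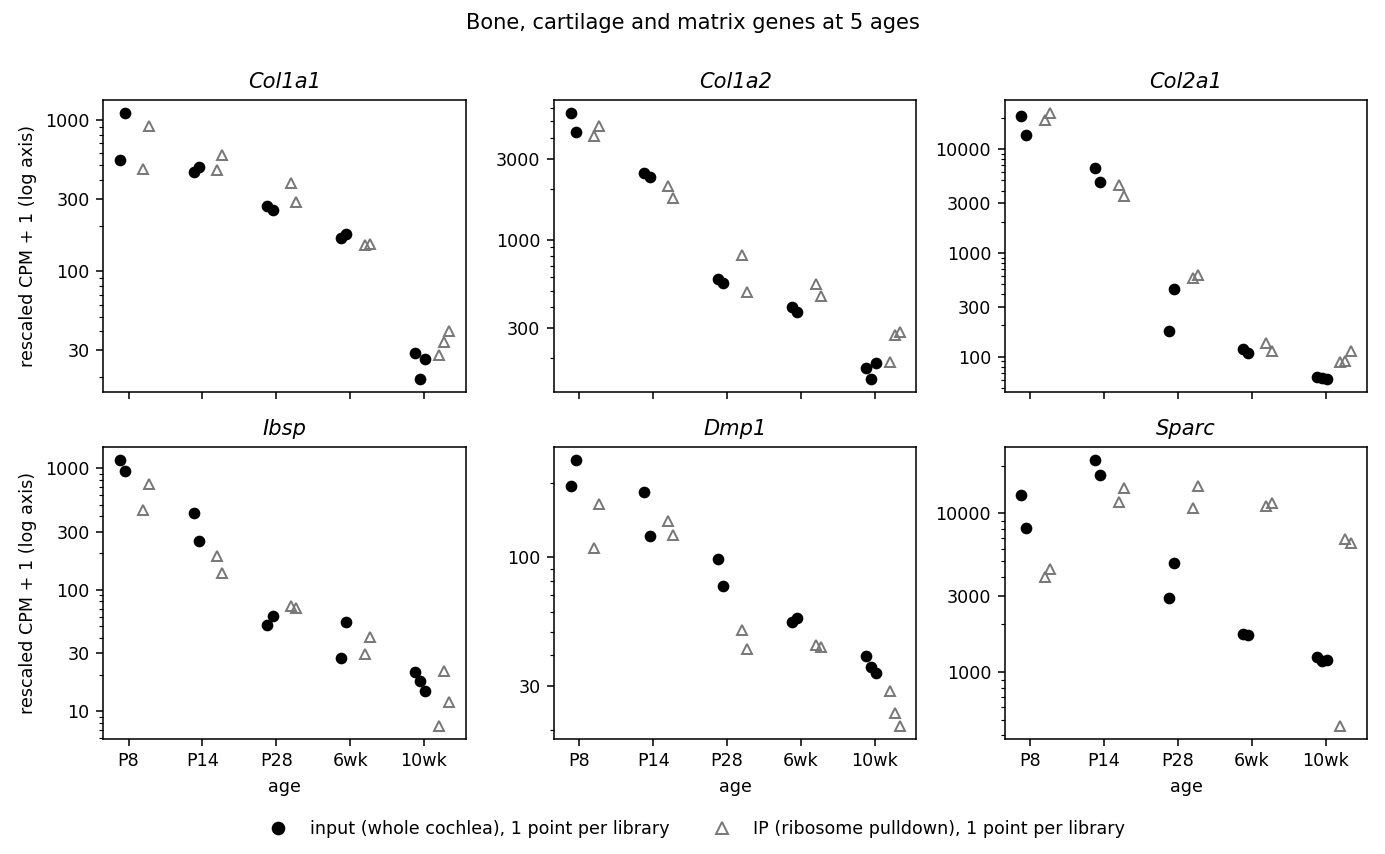
Rescaled CPM + 1 (log axis) of bone, cartilage and matrix genes at P8, P14, P28, 6wk and 10wk; circles are input and triangles IP libraries, 1 point each. Among input libraries Col1a1, Col1a2, Col2a1 and Dmp1 are lowest in the 3 10wk libraries, next lowest in the 6wk libraries and highest at P8; Sparc is lowest at 10wk too.

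Among 24 collagen genes, 11 had all 3 10wk levels below both 6wk levels (21.1% of all genes tested) and 4 were called, all lower (5.29% of all genes): Col1a1, Col1a2, Col3a1 of soft connective tissue (log2 change -0.97) and Col5a2, which joins type I fibrils (log2 change -0.89). Among 30 matrix proteins and processing enzymes, Sparc, a collagen-binding protein of bone, was lower with 1241, 1178 and 1189 rescaled CPM at 10 weeks, against 1736 and 1726 at 6 weeks (log2 change -0.53), and Mmp14, a collagen-cutting protease, was lower (log2 change -0.52). Ogn, a small proteoglycan, was higher with 126, 155 and 147 rescaled CPM at 10 weeks, against 112 and 98.3 at 6 weeks (log2 change 0.44). Without 10wk replicate 3, 0 of these 3 matrix calls remained, and 2 of the 4 collagen calls. Without 6wk replicate 2, Ogn and Col5a2 lost theirs. Of 12 cartilage genes, Col2a1 and Sox9 were lower (5.29% of all genes). Col2a1, the collagen of cartilage and of the tectorial membrane, had 62.0, 60.8 and 59.7 rescaled CPM in the 10wk libraries, against 118 and 107 in the 6wk libraries (log2 change -0.87, adjusted p = 6.96e-04), after 20805 and 13844 rescaled CPM at P8, 6537 and 4857 at P14 and 175 and 448 at P28. Sox9, a cartilage and supporting cell transcription factor, had 143, 164 and 143 rescaled CPM at 10 weeks, against 211 and 193 at 6 weeks (log2 change -0.43). Acp5, the acid phosphatase of osteoclasts, the cells that resorb bone, was the 1 lower gene of 4 (log2 change -0.95, 5.63% shared), and was called in 1 of the 5 fits that leave out a library, the one without 10wk replicate 2.

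Marrow and blood genes leaned the same way with wide spread. Over all genes, 3.55% were higher and 5.29% lower. Of 13 erythroid genes, 4 were lower: Slc4a1, the anion exchanger of red cells, with 9.56, 8.95 and 12.0 rescaled CPM at 10 weeks, against 19.4 and 34.2 at 6 weeks (log2 change -1.27), Ermap, Hba-a2 (log2 change -1.92, 92.8% of its stretches shared) and Hbb-bt (log2 change -1.38, 59.5% shared). Of 14 genes of neutrophils and their precursors, 2 were lower, Mpo (log2 change -1.49, 12.2% shared) and Ngp, with 23.3, 10.3 and 27.1 rescaled CPM at 10 weeks, against 37.5 and 72.9 at 6 weeks (log2 change -1.43), both granule proteins made in the marrow. Of 5 platelet genes, Ppbp and Gp1bb (91.5% shared) were lower. Without 6wk replicate 2, the highest of the 5 libraries for Slc4a1, Hba-a2 and Ngp, 1 of the 4 erythroid calls and 0 of the neutrophil and platelet calls remained. Genes of B cells, T cells, macrophages and mast cells had no call. Plvap of fenestrated vessels was the 1 lower gene of 11 endothelial genes (log2 change -0.77), and was not called once any library was left out.

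Among genes of the interferon response, 4 of 18 tested were higher at 10wk and 0 lower (3.55% and 5.29% of all genes). Interferon-stimulated genes are switched on by type I interferons through a transcription factor complex that binds a repeat of GAAA in their promoters, and many of their products block viruses. The median log2 change of the 18 was 0.64, and 12 had all 3 10wk levels above both 6wk levels (18.8% of all genes), while 0 had all below. Ifit3, an RNA-binding antiviral protein, had 131, 90.4 and 159.8 rescaled CPM in the 10wk libraries, against 50.5 and 53.4 in the 6wk libraries (log2 change 1.24, SE 0.19, adjusted p = 0.00316), with 62.5% of its stretches shared with Ifit3b. Bst2, a membrane protein that tethers budding viruses, had 139, 95 and 178 rescaled CPM in the 10wk libraries, against 59.5 and 61.4 in the 6wk libraries (log2 change 1.12, SE 0.20, adjusted p = 0.00734). Oasl2, of the oligoadenylate synthetase family, had 39.0, 27.9 and 56.1 rescaled CPM in the 10wk libraries, against 19.6 and 22.4 in the 6wk libraries (log2 change 0.88, SE 0.24, adjusted p = 0.0455). Ddx58, the RNA sensor RIG-I, had 32.8, 35.1 and 37.7 rescaled CPM at 10 weeks, against 24.9 and 23.2 at 6 weeks (log2 change 0.53, adjusted p = 0.0394). In Ifit3, Bst2 and Oasl2 the third 10wk library was the highest and the second the lowest of the 3, and all stood above both 6wk libraries.

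The promoters of Ifit3, Bst2 and Ddx58 are printed because they are called genes of the list that hold the repeat, written as GAAA, 2 bases of any kind and GAAA again, and searched on both strands. They run from 250 bases before to 50 after the start in RefSeq (GRCm38.p6), read along the gene, and capitals mark the matches.
Ifit3, chr19:34583279-34583578, plus strand: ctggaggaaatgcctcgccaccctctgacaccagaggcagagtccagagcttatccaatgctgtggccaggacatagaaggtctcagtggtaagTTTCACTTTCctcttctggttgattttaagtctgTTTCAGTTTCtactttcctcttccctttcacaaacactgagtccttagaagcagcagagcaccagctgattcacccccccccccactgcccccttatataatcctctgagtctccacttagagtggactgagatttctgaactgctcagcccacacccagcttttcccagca
Bst2, chr8:71537423-71537722, minus strand: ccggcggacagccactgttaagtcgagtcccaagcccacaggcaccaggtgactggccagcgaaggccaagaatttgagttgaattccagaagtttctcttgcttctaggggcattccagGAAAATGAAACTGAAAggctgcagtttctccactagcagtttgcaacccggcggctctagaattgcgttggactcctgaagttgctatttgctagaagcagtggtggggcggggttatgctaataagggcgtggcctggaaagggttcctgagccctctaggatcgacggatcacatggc
Ddx58, chr4:40239776-40240075, minus strand: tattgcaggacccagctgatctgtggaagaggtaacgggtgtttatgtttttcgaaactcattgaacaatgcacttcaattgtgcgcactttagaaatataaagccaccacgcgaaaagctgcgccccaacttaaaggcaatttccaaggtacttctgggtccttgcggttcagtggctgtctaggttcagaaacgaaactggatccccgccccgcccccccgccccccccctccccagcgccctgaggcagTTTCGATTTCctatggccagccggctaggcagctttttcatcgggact
Of the 19 genes listed, 14 had a promoter in the RefSeq table and 10 of these held the repeat, against 3.99% of all 27025 genes in the table. The called gene Oasl2 and the uncalled genes Irf7 and Ifi44 held none in this window, and the uncalled genes Isg15, Ifit1, Rsad2 and Cxcl10 held it. The letters thus did not separate called from uncalled members.

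Ifit1 had 48.5, 35.2 and 48.7 rescaled CPM at 10 weeks, against 21.9 and 33.7 at 6 weeks (log2 change 0.66, adjusted p = 0.0688), short of the threshold, as did Ifi44 (log2 change 1.35, adjusted p = 0.0584) and Mx2 (log2 change 1.10, adjusted p = 0.0658). Isg15 and Irf7 overlapped between the ages, and Rsad2 had a log2 change of -0.22. The summed level of the list was 274 and 166 rescaled CPM at P8, 422 and 456 at P14, 698 and 573 at P28, 633 and 629 at 6wk and 948, 794 and 1091 at 10wk. The sums were lowest at P8 and highest at 10wk, and P28 and 6wk overlapped. The median IP log2 change of the same genes was 0.71. Bst2 held its call whichever library was left out, and Ifit3 did as well, Oasl2 held it only without 10wk replicate 2, and Ddx58 lost it without any 1 of the 5. Of the 9 tested members that share under 5%, 3 were called, and 1 when genes of that class were fitted alone. With the CPM as deposited, 11 of the list were called, all higher.

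**Figure D5:**
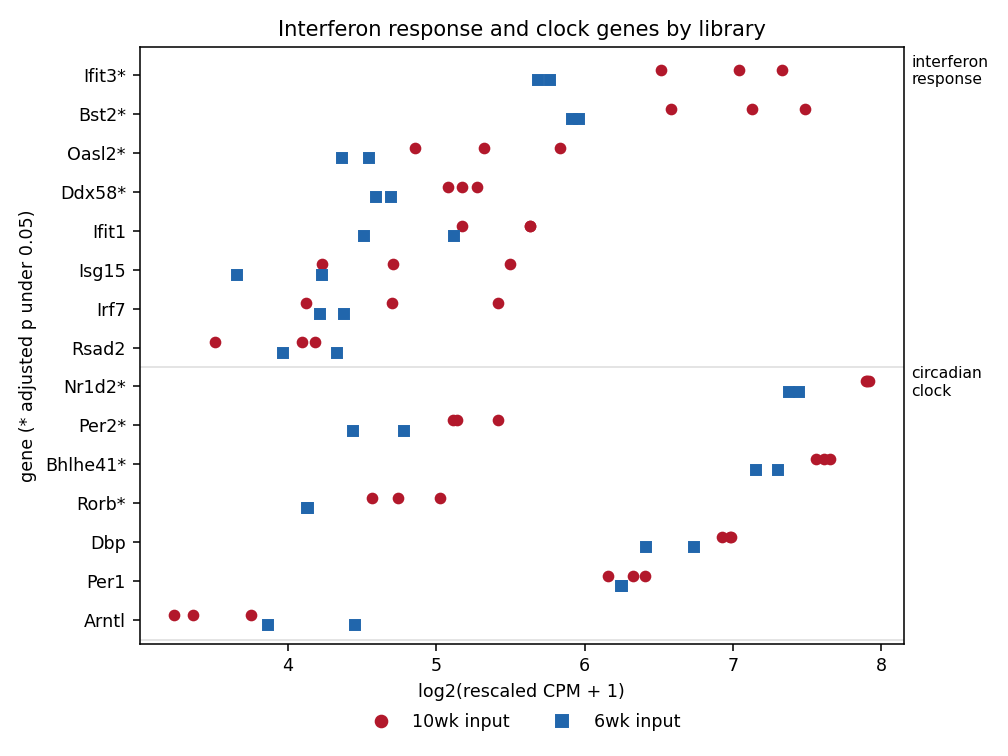
Log2 of rescaled CPM + 1 of interferon response genes and circadian clock genes; each red circle is 1 of the 3 10wk libraries and each blue square 1 of the 2 6wk libraries, and a star marks genes limma called. Ifit3, Bst2 and Oasl2 spread more among the 10wk libraries than Nr1d2, and all of their 10wk points lie above the 6wk points.

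Of 20 circadian clock genes, 4 were higher and 0 lower (median 0.06), against 3.55% and 5.29% of all genes. Nr1d2, a repressor of the clock's feedback loop, had 241, 239 and 237 rescaled CPM in the 10wk libraries, against 173 and 165 in the 6wk libraries (log2 change 0.49, SE 0.088, adjusted p = 0.00672, 9.81% shared). Per2, a core clock repressor, had 33.6, 41.8 and 34.2 rescaled CPM in the 10wk libraries, against 20.7 and 26.6 in the 6wk libraries (log2 change 0.61, adjusted p = 0.0426), and Bhlhe41, another clock repressor, had 200.2, 195 and 187 rescaled CPM at 10 weeks, against 157 and 141 at 6 weeks (log2 change 0.38, adjusted p = 0.0331, 17.8% shared). Rorb, a nuclear receptor of the clock loop, had 22.7, 25.8 and 31.6 rescaled CPM at 10 weeks, against 16.6 and 16.5 at 6 weeks (log2 change 0.65, adjusted p = 0.0452). Dbp, an output gene of the clock, had 121, 126 and 125 rescaled CPM at 10 weeks, against 84.5 and 106 at 6 weeks (log2 change 0.39, adjusted p = 0.0604), and Arntl, the activator whose RNA peaks opposite to theirs, had 8.42, 9.26 and 12.5 rescaled CPM at 10 weeks, against 20.9 and 13.6 at 6 weeks (log2 change -0.71, adjusted p = 0.104); neither was called. Per1 and Nr1d1 overlapped between the ages. The mice were kept in a cycle of 12 h light and 12 h dark and the hour of dissection is not given, so that hour and age cannot be told apart. Leaving out a 10wk library kept 1 of the 4 calls and leaving out a 6wk library 2. Nr1d2 kept its call in all 5.

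Genes that respond quickly to stimulation or stress changed in few members. Of 22 immediate early genes, 2 were lower (5.29% of all genes), Arc with 1.73, 2.52 and 2.24 rescaled CPM at 10 weeks, against 4.31 and 9.84 at 6 weeks (log2 change -1.27) and Nr4a3 (log2 change -1.49), both high in active neurons, and 11 lay below both 6wk levels in all 3 10wk libraries (21.1% of all genes). Without 6wk replicate 2 or without 10wk replicate 1, 0 of these 2 calls remained. Klf9, a glucocorticoid-responsive transcription factor, had 149, 152 and 139 rescaled CPM at 10 weeks, against 188 and 219.7 at 6 weeks (log2 change -0.47), and Nfkbia, the inhibitor of NF-kappaB, had 58.0, 65.1 and 68.8 rescaled CPM at 10 weeks, against 93.8 and 116 at 6 weeks (log2 change -0.70, adjusted p = 0.00704). Manf, a secreted protein of the unfolded protein response, was higher with 167, 173 and 173 rescaled CPM in the 10wk libraries, against 106 and 107 in the 6wk libraries (log2 change 0.67, adjusted p = 0.00143, 7.30% shared). The chaperones Hspa8 and Hsp90aa1 were lower (log2 changes -0.65 and -0.60, 45.1% and 51.8% shared), and the mitochondrial chaperone Hspd1 higher (log2 change 0.48, 53.8% shared). With pseudogene reads added, none of the 3 was called: Hspa8 had a log2 change of -0.035 (adjusted p = 0.896), Hsp90aa1 of -0.35 (adjusted p = 0.105) and Hspd1 of 0.25 (adjusted p = 0.166). Nfkbia, Manf and Hspa8 held their calls whichever library was left out, while Hsp90aa1 and Hspd1 lost theirs without 10wk replicate 1 or without 6wk replicate 2, and Hspd1 also without 10wk replicate 3. Klf9 lost its call without 10wk replicate 1, 10wk replicate 3 or 6wk replicate 2.

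Few genes of the sensory epithelium and the lateral wall passed the test (3.55% higher and 5.29% lower over all genes). Of 12 outer hair cell genes, 0 were higher and 1 lower, a call that held only without 10wk replicate 2. The list's summed level was 369, 366 and 384 rescaled CPM in the 10wk libraries, against 402 and 425 in the 6wk libraries, with the groups apart. Of 12 genes common to both hair cell types, the 1 lower gene was Calb1. Inner hair cell genes had 0 calls among 8. Ikzf2, a transcription factor of outer hair cells, had a log2 change of 0.13 (adjusted p = 0.761). Rpl22, the gene of the tagged ribosomal protein, had 181, 162 and 188 rescaled CPM at 10 weeks, against 119 and 135 at 6 weeks (log2 change 0.48, adjusted p = 0.0189), and shares 7.1% of its stretches with a pseudogene; this allele is present in all 5 libraries, so this gene is no check of the age labels. Its call was lost without 10wk replicate 1, 10wk replicate 3 or 6wk replicate 1. Of 16 supporting cell genes, Cdkn1b, a cell cycle inhibitor, was higher with 274, 268 and 262 rescaled CPM at 10 weeks, against 201 and 195 at 6 weeks (log2 change 0.44). Slc1a3, a glutamate transporter of supporting cells and of astrocytes, and Lfng, a modifier of Notch, were lower (log2 changes -0.54 and -0.86). Without 6wk replicate 2, 0 of these 3 calls remained.

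In the stria vascularis, marginal cell genes had 0 calls among 10. Melanocyte-like intermediate cells had 2 higher and 0 lower genes among 8: Mlana, a melanosome protein, with 46.1, 41.8 and 42.4 rescaled CPM in the 10wk libraries, against 26.4 and 27.4 in the 6wk libraries (log2 change 0.67, adjusted p = 0.00896), and Tyr, the key enzyme of melanin synthesis, with 149.7, 137 and 122 rescaled CPM in the 10wk libraries, against 110.4 and 83.9 in the 6wk libraries (log2 change 0.49, adjusted p = 0.048). Dct, another pigment enzyme, had 1709.8, 1985 and 1678 rescaled CPM at 10 weeks, against 1825 and 1598 at 6 weeks and was not called. Without 10wk replicate 1, 0 of the 2 calls remained, and without 10wk replicate 2 or 6wk replicate 2 Mlana alone. Of 12 fibrocyte genes, the water channel Aqp1 was higher (log2 change 0.40) and Gm525 lower with 1486, 1407 and 1478 rescaled CPM at 10 weeks, against 2074 and 1904 at 6 weeks (log2 change -0.45), and neither held its call without any 1 of the 10wk libraries, nor Aqp1 without 6wk replicate 2. Of 18 genes of potassium cycling, 0 were higher and 2 lower (3.55% and 5.29% of all genes). Of these 2 calls, 1 remained without 6wk replicate 2, and both held only without 10wk replicate 2. Tjp1, a tight junction scaffold, was higher among 5 basal cell genes (log2 change 0.37) and lost its call without any 1 library.

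Mitochondrial genes were higher where they were called. Of 9 mRNAs of the mitochondrial genome, 3 were higher and 0 lower (median 0.45). All 3 10wk levels lay above both 6wk levels in 8 of the 9 (18.8% of all genes). Of the 3 called, mt-Co2 and mt-Co3 reached 1 rescaled CPM in 10wk libraries only. They passed the filter through the age at which they are high, which leaves mt-Nd6. mt-Nd6, the 1 complex I subunit encoded on the light strand, had 258, 249 and 249 rescaled CPM in the 10wk libraries, against 129 and 139 in the 6wk libraries (log2 change 0.91, adjusted p = 2.25e-04, 8.37% shared). mt-Co1, a catalytic subunit of complex IV, had 18123, 17909.8 and 15677 rescaled CPM in the 10wk libraries, against 13928 and 11398 in the 6wk libraries (log2 change 0.45, adjusted p = 0.272, 64.8% shared). mt-Co2 was listed at 0 in both 6wk libraries and at all other ages, against 4.10, 7.63 and 4.81 rescaled CPM at 10wk, and shares 100% of its stretches with the annotated gene Gm28661, so no fold is given. Of 23 nuclear genes of oxidative phosphorylation, 5 were higher and 0 lower: Cox6c, Ndufs6, Ndufb3 (14.2% shared), Atp5j with 472, 448 and 447 rescaled CPM at 10 weeks, against 309 and 299 at 6 weeks (log2 change 0.58, 11.6% shared) and Cox7b with 193, 177 and 184 rescaled CPM at 10 weeks, against 110.2 and 109 at 6 weeks (log2 change 0.74, 7.36% shared). All 5 share at least 5% of their stretches with other genes, and of the 10 list members that share less, 0 were called. mt-Nd6, Cox6c, Ndufs6, Atp5j and Cox7b held their calls without each of the 5 libraries, while mt-Co3 (99.9% shared) and Ndufb3 were called in 1 of the 5 fits each, mt-Co3 without 10wk replicate 3 and Ndufb3 without 10wk replicate 2. Atp5j2, a subunit of the ATP synthase outside that list and with few shared stretches, had 287, 236 and 281 rescaled CPM in the 10wk libraries, against 128 and 152 in the 6wk libraries (log2 change 0.93, adjusted p = 8.96e-04).

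Of 20 genes of oxidative stress defence, 4 were higher and 1 lower (3.55% and 5.29% of all genes). Sod1, the cytosolic superoxide dismutase, had 186, 169 and 195 rescaled CPM in the 10wk libraries, against 62.5 and 66.2 in the 6wk libraries (log2 change 1.5, 5.57% shared). Gsta4, a glutathione transferase for lipid peroxidation products, had 979, 1026 and 937 rescaled CPM in the 10wk libraries, against 703 and 696 in the 6wk libraries (log2 change 0.49, adjusted p = 0.0124), and Prdx1 and Gstm1 had log2 changes of 0.71 and 0.58 (15.9% and 29.4% shared). With pseudogene reads added, the log2 change of Sod1 was 0.41 (adjusted p = 0.0315), while Prdx1 (0.26, adjusted p = 0.121) and Gstm1 (0.22, adjusted p = 0.393) were no longer called, so that 2 of the list were higher and 0 lower. Gpx4, which repairs lipid peroxides, was lower with 15.8, 14.0 and 20.8 rescaled CPM at 10 weeks, against 36.8 and 31.0 at 6 weeks (log2 change -0.98, 39.2% shared), a value that turned to 0.17 with that step (adjusted p = 0.341). The same step turned Rpl19 (log2 change -3.15, 59.0% shared), Rps16 (-2.03, 39.4% shared) and Rps2 (-0.91, 49.1% shared) to positive log2 changes of 0.39, 0.47 and 1.40. Gsta4 lost its call without 10wk replicate 1, and Gstm1 without any 1 of the 10wk libraries or without 6wk replicate 1. For these 3 ribosomal protein genes, parts of the translation machinery of every cell, the direction thus changed with the handling of copies.

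The higher genes picked by size mostly had shared stretches, at least 12.1% in 11 of 12. Of the 12 largest higher changes by the naming rule, H3f3c, a histone gene copy annotated as a processed pseudogene, had 26.4, 25.1 and 33.2 rescaled CPM at 10 weeks, against 1.57 and 1.63 at 6 weeks (log2 change 3.48, 91.9% shared). Rps28 had 13.1, 14.1 and 17.5 rescaled CPM at 10 weeks, against 1.32 and 0.815 at 6 weeks (log2 change 2.94, 15.5% shared), and Rps25 had 50.7, 46.9 and 52.1 rescaled CPM at 10 weeks, against 8.43 and 11.1 at 6 weeks (log2 change 2.25, 39.2% shared). In each, both 6wk levels were below the 10wk levels. Fbl, the RNA methyltransferase fibrillarin, had 16.8, 16.0 and 16.9 rescaled CPM at 10 weeks, against 2.67 and 1.69 at 6 weeks (log2 change 2.48, 22% shared), and Elob, a subunit of elongin, had 92.1, 90.1 and 96.1 rescaled CPM at 10 weeks, against 16.2 and 25.0 at 6 weeks (log2 change 2.15, 20.9% shared). Rpl38, Rpl35 and Rnaset2b had log2 changes of 2.36, 1.84 and 2.37 (31.8%, 88.9% and 63.4% shared). With pseudogene reads added, Rps28 (log2 change 0.22, adjusted p = 0.222) and Rpl38 (0.24, adjusted p = 0.303) were no longer called, Rpl35, Rps25 and Elob had smaller log2 changes of 0.59, 1.25 and 1.54, and Fbl and Rnaset2b kept theirs at 2.49 and 2.37. Others were Cox6c, mt-Co2 and Fbp1, a gluconeogenic enzyme with 9.97, 6.66 and 3.43 rescaled CPM at 10 weeks, against 0 and 0.757 at 6 weeks (log2 change 2.44). The same rule among genes sharing under 5%, chosen after the data were seen, named changes of smaller size. Snapc5, a subunit of the complex that starts small nuclear RNA transcription, had 61.4, 63.3 and 64.8 rescaled CPM in the 10wk libraries, against 28.6 and 33.7 in the 6wk libraries (log2 change 1.0, adjusted p = 7.89e-04). Lsm4, a protein of the splicing and decay machinery, had 20.5, 21.7 and 25.3 rescaled CPM at 10 weeks, against 9.25 and 11.9 at 6 weeks (log2 change 1.03).

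Nuclear and other untranslated RNAs moved in both directions, with 3 higher and 3 lower of 11. Neat1, the long RNA around which paraspeckles form, had 433, 631 and 459.7 rescaled CPM in the 10wk libraries, against 189 and 202 in the 6wk libraries (log2 change 1.35, SE 0.15, adjusted p = 3.91e-04), and 2238, 1639.8 and 1593 in 10wk IP, against 495 and 409 in 6wk IP. Miat, another nuclear RNA, had 58.2, 72.1 and 70.2 rescaled CPM in the 10wk libraries, against 29.9 and 37.9 in the 6wk libraries (log2 change 0.96, 27.0% shared), and Snhg11 had a log2 change of 0.68 (7.39% shared). Rpph1, the RNA of RNase P, had 1.23, 1.67 and 2.09 rescaled CPM in the 10wk libraries, against 10.6 and 40.8 in the 6wk libraries (log2 change -3.06, 70.3% shared), and Rmrp (100% shared) and Kcnq1ot1 had log2 changes of -1.48 and -0.78. All 10wk levels of Neat1 were above both 6wk levels in input and in IP. Without 10wk replicate 2, 3 of the 6 calls remained, and without 6wk replicate 2 or 10wk replicate 1 the calls of Rmrp and Kcnq1ot1 were lost.

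Mir6236, a gene of chr9:110281287-110281409, had the largest log2 change among the named genes. It had 0.364, 0.155 and 0.286 rescaled CPM in the 10wk libraries, against 241 and 1273 in the 6wk libraries (log2 change -8.78). It passed the filter through the 6wk libraries only, so that it had to differ and no test is given, and without either 6wk library it no longer passed the filter. Its mature sequence in RefSeq (GRCm38.p6, plus strand) is printed because this is the 1 microRNA among the named genes; capitals mark the seed, bases 2 to 8.
miR-6236, chr9:110281353-110281371: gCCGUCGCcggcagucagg
Levels of Mir6236 were 105 and 7868 rescaled CPM at P8, 204 and 72.3 at P14 and 112 and 220.4 at P28, and 0.346, 0 and 0.187 in 10wk IP. All 6 10wk libraries were thus nearly without reads on it, and no library of another age was. The P8 library with the highest level is also the one with the most Gm42418. Libraries of long RNA do not measure the mature microRNA. In all, 29 genes had all 6 10wk libraries above all 16 other libraries and 28 had all 6 below.

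The change from 6wk to 10wk in input was set against the change in IP, to ask where whole cochlea and pulldown moved apart. Of 19056 genes tested, 1 was called (0.00525%), and 2571 had an unadjusted p under 0.05. Rn7sk, the small nuclear RNA 7SK that holds back transcription elongation, at chr9:78175303-78175633 with 73.5% of its stretches shared, had 108, 110.3 and 116 rescaled CPM in the 10wk libraries, against 117 and 238 in the 6wk libraries. In the pulldown it had 1193, 787 and 841 in 10wk IP, against 127 and 154 in 6wk IP. The input change minus the IP change was -3.30 on the log2 scale (SE 0.39, adjusted p = 0.0366). The level was thus similar in all input libraries but the second of 6wk, and high in the 3 10wk IP libraries. The 10wk IP libraries also had more reads outside genes, 47.7, 36.0 and 41.0%, against 23.0 and 27.3% in 6wk IP. Summed over the list of nuclear and untranslated RNAs, they had 51994, 30846 and 34428 rescaled CPM, against 15388 and 25682 in 6wk IP. The part of these library differences in the value of Rn7sk was not tested. The edgeR count test called 0 genes in this difference and the DESeq2 test 145, so that the number of genes depends on the test.

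Several lists had 0 calls: inner hair cells, marginal cells, pericytes, muscle, adipocytes, B cells, T and NK cells, macrophages and mast cells. So had ciliated cells, keratinocytes, the vestibular organ, mitosis, cholesterol synthesis, fatty acid synthesis and growth factors with the insulin-like growth factor axis. Tectorial membrane and stereocilia, sex-linked genes and histones had 0 as well. Some lists were short, with 1 gene tested for mast cells and 2 for T and NK cells. Adipocytes, the vestibular organ and histones had 4 each. Over all genes, 3.55% were higher and 5.29% lower. Xist, expressed from the inactive X chromosome of females, had 32.3, 82.4 and 40.5 rescaled CPM at 10 weeks, against 48.3 and 26.7 at 6 weeks, and the Y-linked gene Ddx3y had 67.7, 47.4 and 62.4 rescaled CPM at 10 weeks, against 54.2 and 64.8 at 6 weeks. Both were present in all 5 libraries. A p above the threshold with 3 and 2 libraries does not show that levels are equal. On simulated reads of this design, 45% of 2-fold and 100% of 4-fold changes were called. Those changes were put only into genes averaging at least 5 rescaled CPM, with 1 common dispersion for all genes. The shares do not cover genes of lower level or wider spread.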

How the data were processed

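Reads were aligned with TopHat to GRCm38, per the submitters' processing notes; versions, the counting tool and its use of strand were not given in the sources used here. For each library the authors deposited CPM of genes, relative to all reads of its table. Besides 49671 gene identifiers, the tables hold 5 entries without a gene, which were kept out (11.1 to 14.2% of reads outside genes and 19.1 to 35.0% aligned to several places). GENCODE M21 gave a symbol to 49412 of them. Every value (100%) was a whole multiple of 1 read within a tolerance of 0.01, so whole reads were recovered.

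CPM were rescaled to the same total over genes without Gm42418. Genes at 1 or more in at least 2 of the 5 libraries were tested on log2(rescaled CPM + 1), two-sided, with limma 3.58.1 (trended prior) in R 4.3.3 and Benjamini-Hochberg adjustment over all genes; a call is an adjusted p under 0.05. Fold changes on this scale understate those of low genes. The input change minus the IP change was fitted over the 10 libraries of both ages. Alternatives were a pseudocount of 0.25, no filter, CPM as deposited, TMM, rescaling without mitochondrial and haemoglobin genes, quantile normalization, a replicate block, fits over more ages, array weights, leaving out each library, and edgeR 4.0.16 and DESeq2 1.42.0 on the whole reads, which called 1366 and 2125 genes. Added after the data were seen were fits of genes sharing under 5% of their 30-base stretches and of counts with pseudogene reads moved to the most similar gene.

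Named genes are the 12 largest called log2 changes each way whose higher group averages at least 5 rescaled CPM, whose symbol is not that of a predicted gene or pseudogene, and with all 3 10wk libraries beyond both 6wk libraries; for the difference from IP, the 5 largest each way; called list members; and Slc26a5, Rpl22, Ikzf2 and Gm42418. Other genes are named as members of lists, and some genes under these rules are not reported here. The members and lists were chosen with earlier results of these data known, and 6 lists after values of this comparison were seen. Replicate numbers are those of the titles; the headers of the second 6wk pair, input and IP, carry the number 3. The numbers did not pair the ages (correlation of deviations 0.0599). Deviations of same-numbered input and IP libraries of an age correlated at 0.12 to 0.336, and unlike numbers were not compared. With 2 libraries, both 6wk pairs give the same value, 0.336. The main fit of the difference from IP did not pair input with IP. On simulated reads, 45% of 2-fold and 100% of 4-fold changes were recovered among 17165 genes for the ages. For the difference from IP these were 10% and 85% among 17628 genes. The changes were put only into genes averaging at least 5 rescaled CPM over the 10 input and IP libraries. Every gene had the same dispersion (0.0504). False calls were 10 of 155 for the ages and 3 of 98 for the difference from IP. Promoter and microRNA sequences are from RefSeq (GRCm38.p6). Coordinates are those of GRCm38, counted from 1.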

Additional observations from a re-analysis of the deposited data

Results flagged for a closer look

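In 1 gene the change in whole cochlea and the change in pulled-down ribosomes differed by the test of the difference itself. Rn7sk had 108, 110.3 and 116 rescaled CPM in 10wk input, against 117 and 238 in 6wk input, and 1193, 787 and 841 in 10wk IP, against 127 and 154 in 6wk IP. The input change minus the IP change was -3.30 on the log2 scale (limma adjusted p = 0.0366), with all 3 10wk IP libraries above both 6wk IP libraries. Reads outside genes were 47.7, 36.0 and 41.0% in 10wk IP, against 23.0 and 27.3% in 6wk IP, and their part was not tested. The call held in 10 of 20 alternatives, over which the adjusted p ran between 1.36e-10 and 0.343 and the difference between -3.81 and -2.59. With 2 or 3 libraries a group, single libraries were not tested for standing apart.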

How the results depend on the processing

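The count of 1433 called genes stayed within 1.5 times under a pseudocount of 0.25, TMM, quantile normalization, CPM as deposited, removal of mitochondrial and haemoglobin genes, edgeR, DESeq2 (2125), array weights and pseudogene reads added (1036), and with the replicate block (1312 genes, 386 higher and 926 lower), although the numbers do not pair the ages. It was 729 with no filter on low values, 32 over all 11 input libraries, 66 over the 9 without P8, 24 over all 22 libraries and 386 among the genes sharing under 5% of their stretches fitted alone (650 of that class in the fit of all genes); the cause was not tested. With array weights, the fit over all 11 input libraries called 1709 genes, and 9 of 163 named genes lost their call. Leaving out 1 library gave 684 to 1543. For the difference between the input and IP change, leaving out 1 library gave 0 to 1 called genes, edgeR 0 (limma 1), DESeq2 145 and genes with few shared stretches 0; the replicate block kept the count at 1. With pseudogene reads added, Gpx4, Rpl19, Rps16 and Rps2 turned to log2 changes of 0.17, 0.39, 0.47 and 1.40. Of 163 named genes, 149 lost their call over all 11 input libraries, 141 over the 9 without P8, 153 over all 22, 92 with no filter, 44 with CPM as deposited, 28 with the block and 7 with TMM. With 17170434 gene reads in the shallowest library, a gene at 1 rescaled CPM rests on few reads.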
